A study of Mus musculus with 17 samples.

Results

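The C1q-like genes *C1ql1*, *C1ql2* and *C1ql3* and the cerebellin genes *Cbln1*, *Cbln2*, *Cbln3* and *Cbln4* were followed in astrocytes of the developing mouse brain. They were found by gene symbol among 26556 genes, and all 7 had a row in the counts. The family was chosen by its measured levels, because *C1ql2* stood at the head of the genes with more RNA in thalamic than in cortical astrocytes of these same libraries, so the thalamus and cortex values are given below as a description, without a test. RNA was sequenced from GFP-positive cells of FVB mice carrying *Gfap::Gfp*, a transgene in which the *Gfap* promoter drives the reporter, at postnatal day 7 (P7). No treatment separated the groups, and all of them carried the transgene. There were 4 libraries from the cortex (primary somatosensory area), 5 from the dorsolateral geniculate nucleus (dLG, the visual relay of the thalamus), 4 from the ventral posteromedial nucleus (VPM, the somatosensory relay of the face) and 4 from the ventral part of the medial geniculate (MGv, the auditory relay). Each library was a pool of 4 brains. A reporter under the *Gfap* promoter marks cells in which that promoter is or was active, which can include glial progenitors.

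C1q-like proteins and cerebellins are small secreted proteins with a C1q domain, the fold first described in complement component C1q. They assemble into multimers in the synaptic cleft and link a presynaptic protein to a postsynaptic receptor. Cerebellins bind neurexins on the axon and the GluD receptors on the dendrite, and *Cbln1* is known for holding parallel fibre synapses onto Purkinje cells. C1q-like proteins bind the adhesion receptor Adgrb3 (BAI3), and C1ql2 and C1ql3 also bring together neurexin 3 and kainate receptors at hippocampal mossy fibre synapses. Most of this knowledge comes from neurons, and *C1ql1* is also known from oligodendrocyte precursor cells.

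The upstream sequences of *C1ql2* and *Cbln4* are shown because these genes carry the sharpest differences below, *C1ql2* between thalamus and cortex and *Cbln4* between nuclei. Each is the 250 bases before the RefSeq start of the gene in build GRCm38.p6, 5′ to 3′ on the strand of the gene, at chr1:120340332-120340581 on the plus strand for *C1ql2* and at chr2:172043467-172043716 on the minus strand for *Cbln4*. Capitals mark matches on either strand to the CCAAT box (CCAAT), the GC box (GGGCGG) or the TATA box (TATAAA).
C1ql2: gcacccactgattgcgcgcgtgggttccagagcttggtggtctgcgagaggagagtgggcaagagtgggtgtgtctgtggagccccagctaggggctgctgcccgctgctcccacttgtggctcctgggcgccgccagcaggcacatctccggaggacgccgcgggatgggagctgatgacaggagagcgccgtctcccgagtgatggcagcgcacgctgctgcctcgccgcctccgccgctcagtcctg
Cbln4: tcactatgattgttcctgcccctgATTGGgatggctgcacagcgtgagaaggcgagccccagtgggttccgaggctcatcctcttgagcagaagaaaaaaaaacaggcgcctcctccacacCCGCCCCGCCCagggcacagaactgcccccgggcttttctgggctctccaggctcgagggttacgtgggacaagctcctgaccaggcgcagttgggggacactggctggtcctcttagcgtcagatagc

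The *C1ql2* window held none of these letters, and the *Cbln4* window held 1 CCAAT box and 2 GC boxes that overlap by their last and first base. Of 32851 windows of the same length, 33.8% held a CCAAT box, 32.7% a GC box and 12.4% a TATA box. The *C1ql2* window had 20 CpG dinucleotides, more than 82.1% of the windows, and the *Cbln4* window had 11, more than 64.4%. Nothing was measured on these windows, so these are descriptions of the sequences. RefSeq windows matched by name were kept for 4 of the 7 genes, and any on chromosome 18, where *Cbln2* lies, was left out.

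In GRCm38.p6, *C1ql1* (ENSMUSG00000045532) lies on chromosome 11 from 102939264 to 102946688 on the minus strand and *C1ql2* (ENSMUSG00000036907) on chromosome 1 from 120340582 to 120343174 on the plus strand. *C1ql3* (ENSMUSG00000049630) lies on chromosome 2 from 13003457 to 13011806, and *Cbln4* (ENSMUSG00000067578) on the same chromosome from 172036233 to 172043466, both on the minus strand. *Cbln1* (ENSMUSG00000031654) is on chromosome 8 from 87468405 to 87472609 (minus strand), *Cbln2* (ENSMUSG00000024647) on chromosome 18 from 86711110 to 86718283 (plus strand) and *Cbln3* (ENSMUSG00000040380) on chromosome 14 from 55878913 to 55884392 (minus strand). All are protein-coding, and every value below counts reads over their exons. *C1ql1*, *C1ql2*, *Cbln1*, *Cbln2* and *Cbln4* shared none of their 50-base stretches, the length of a read, with another annotated gene. The longest identical run between members was 38 bases, between *C1ql2* and *C1ql3*. *C1ql3* was different, since 64.2% of its exonic length overlapped the opposite-strand genes *Gm37824* and *Gm37811*, and the library kit did not mark strand. Reads from the overlap cannot be told apart by strand, and 61.7% of its 50-base stretches also occur in those genes. Where the counting left such reads out, the level of *C1ql3*, its CPM per kb and its share of the family are too low, since the length used is the full exonic length. *Cbln3* shared 1.87% of its 50-base stretches with 226 other genes. The counts assigned to those opposite-strand genes were at most 0.672 CPM and 1.49 CPM in any library.

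Library totals ran from 18213687 to 50366363 counts assigned to genes. Levels are CPM, counts relative to the library size after TMM scaling, and CPM per kilobase of exonic length (CPM per kb) where genes are compared with each other. Of 8 astrocyte markers, all were detected in every library, with a summed level of 12253 to 13126 CPM in cortex, 7111 to 8620 CPM in dLG, 6054 to 8409 CPM in VPM and 5716 to 14905 CPM in MGv. *Gfap*, 1 of these markers, has the promoter that drives the reporter. Its mean was 494 CPM in cortex, 534 CPM in dLG, 12.3 CPM in VPM and 1862 CPM in MGv. Markers of the oligodendrocyte lineage (7 genes) were also high, at 6625 to 8012 CPM in cortex and 6120 to 11113 CPM in the thalamus. The summed level of 10 neuronal markers was 1084 to 1327 CPM in cortex and 745 to 1987 CPM in the thalamus. Microglial markers summed to 45.1 to 53.8 CPM in cortex, 40.4 to 144 CPM in dLG, 38.1 to 52.7 CPM in VPM and 32.3 to 90.9 CPM in MGv. Endothelial and mural markers were at 2.36 to 67.6 CPM and ependymal markers at 1.15 to 79.5 CPM over all libraries, with 5 of 6 and 3 of 4 genes at 0 in some library. dLG replicate c stood apart in having 17749 genes with a count, against 21052 to 23365 in the other libraries, and MGv replicate c had the highest summed astrocyte level.

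The 7 genes differed in level by orders of magnitude, and *C1ql1* made up most of the family's RNA in every group. Per length, *C1ql1* was at 296 ± 33.4 CPM per kb in cortex (SD, n = 4), 224 ± 33.4 in dLG (SD, n = 5), 337 ± 40.7 in VPM (SD, n = 4) and 298 ± 101 in MGv (SD, n = 4). It held 94.1% ± 1.59 of the summed level per length of the 7 genes in cortex, 79.9% ± 3.17 in dLG, 85.6% ± 0.966 in VPM and 81.8% ± 3.65 in MGv. The place next to it was taken by *C1ql3* in cortex, with 4.06% ± 1.18, and by *C1ql2* in each nucleus, with 13.1% ± 0.824 in dLG, 9.13% ± 0.372 in VPM and 11.6% ± 0.981 in MGv. In cortex *C1ql2* held 0.984% ± 0.173. The 4 cerebellins came lower. *Cbln2* was the highest of them per length in each group, at 1.99 CPM per kb in cortex and 8.24 to 10.9 CPM per kb in the nuclei, and *Cbln3* was the lowest, below 0.1 CPM per kb as a mean of any group.

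**Figure D1:**
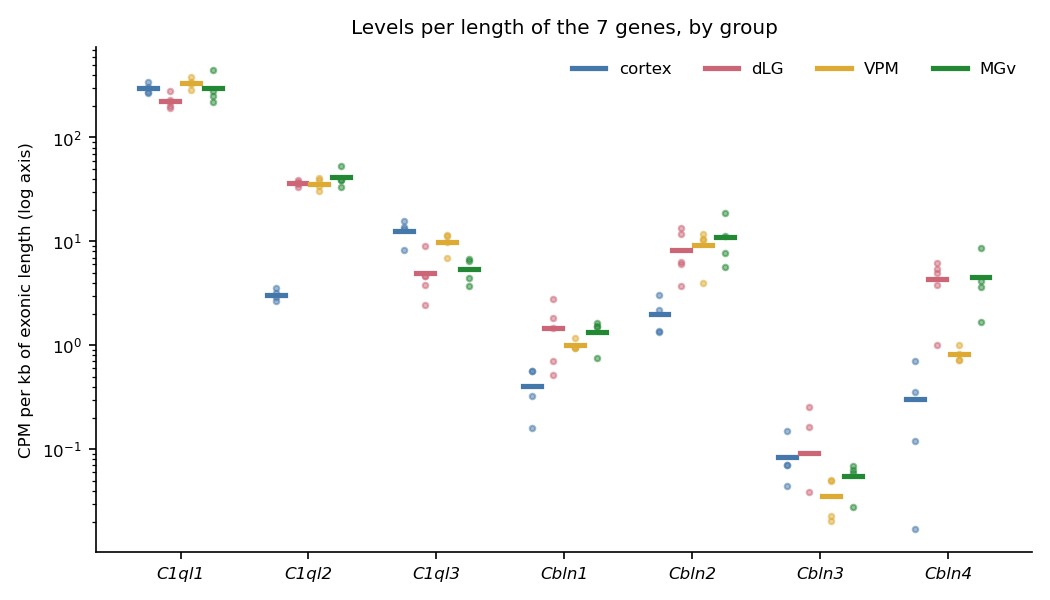
Level per exonic length (CPM per kb, log axis) of the 7 genes in cortex, dLG, VPM and MGv, with 1 point per library and a bar at the mean of each group. *C1ql1* stands highest in all groups at means of 224 to 337 CPM per kb, *C1ql2* has means of 3.07 CPM per kb in cortex and 35.9 to 41.2 CPM per kb in the nuclei, and 2 dLG libraries with 0 counts of *Cbln3* have no point.

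*C1ql2*, a ligand of Adgrb3 that is known from hippocampal mossy fibres, had the clearest regional pattern. In cortex it was at 5.83, 5.31, 6.33 and 7.09 CPM in replicates a to d. In dLG it was at 66.2, 73.0, 78.2, 70.6 and 75.2 CPM in replicates a to e, in VPM at 80.7, 60.5, 78.6 and 67.7 CPM, and in MGv at 77.9, 107, 66.2 and 78.7 CPM. Every thalamic library was above every cortical library, with a gap from 7.09 to 60.5 CPM. The 13 thalamic libraries had a mean of 75.4 ± 11.3 CPM (SD) and the 4 cortical ones 6.14 ± 0.759 CPM (SD), a ratio of 12.3 and a log2FC of 3.62 (SE 0.16). In bulk libraries of pooled sorted cells, fewer cells with a transcript and less transcript per cell cannot be told apart.

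Some marker genes also differed between the regions, where 11.4% of all genes were called. By the edgeR quasi-likelihood test over all genes, at an adjusted p under 0.1, 3 of 10 neuronal markers were higher and 1 was lower in the thalamus, 3 of 8 astrocyte markers, 2 of the 2 tested ependymal markers and 1 of 6 endothelial and mural markers were lower, and none of the 6 microglial and 7 oligodendrocyte lineage markers passed. At an unadjusted p under 0.05 there were 1 microglial and 0 oligodendrocyte lineage markers, and DESeq2 called 1 and 0. Their part in the regional levels of the members was not tested.

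*Cbln2* and *Cbln4*, which as cerebellins bind neurexins, also had no overlap between thalamus and cortex. The share of all genes without such overlap was not counted, so nothing is read from the number of members. *Cbln2* was at 3.87, 8.90, 3.96 and 6.32 CPM in cortex. It was at 38.7, 17.5, 10.8, 33.9 and 18.3 CPM in dLG, at 34.2, 11.5, 30.1 and 30.6 CPM in VPM and at 32.8, 16.5, 22.3 and 54.9 CPM in MGv. The lowest thalamic library, dLG replicate c, was close to the highest cortical one, cortex replicate b, and the log2FC was 2.24 (SE 0.40). The ratio of means was 4.70. *Cbln4* was at 1.04, 0.0491, 0.346 and 2.07 CPM in cortex, where replicate b had 1 count. Its thalamic levels began at 2.10 CPM in VPM replicate a, next to the highest cortical value of 2.07 CPM, and the log2FC was 3.43 (SE 0.85). By library number series, the first digits of the number that the labels give each library, *C1ql2* in series 321 was at 6.33 to 7.09 CPM in cortex, against 66.2 to 107 CPM in the nuclei, and in series 324 at 5.31 to 5.83 CPM against 60.5 to 80.7 CPM.

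The other members overlapped between the regions. *Cbln1*, the founding cerebellin, was at 1.73, 0.491, 0.989 and 1.74 CPM in cortex. It was at 1.59, 5.54, 8.41, 2.14 and 4.49 CPM in dLG, at 2.86, 3.57, 2.85 and 2.96 CPM in VPM and at 4.57, 4.71, 2.28 and 4.94 CPM in MGv. Only dLG replicate a lay within the cortical range, and the log2FC was 1.65 (SE 0.44). *C1ql3* had its highest level in cortex, at 35.0, 33.0, 20.8 and 39.5 CPM, with a thalamus against cortex log2FC of -0.94 (SE 0.31), and dLG replicate d and VPM replicates a, c and d lay within the cortical range. *C1ql1*, the most abundant member, was at 500, 401, 452 and 394 CPM in cortex and differed least, with a log2FC of -0.08 (SE 0.19, 95% interval -0.46 to 0.31).

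*Cbln3*, a cerebellin known from cerebellar granule cells, was near the limit of detection. It had 0 to 26 counts per library, at most 1.24 CPM, and did not pass the filter on low counts in any comparison. In dLG replicates c and e it had 0 counts, which allows levels up to 0.140 CPM and 0.157 CPM. The 6 other members passed the filter. The median thalamus against cortex log2FC of the 6 members was 1.94, and that of all genes was 0.02. The family was chosen by this contrast, so the first median depends in part on that choice and is only a description.

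**Figure D2:**
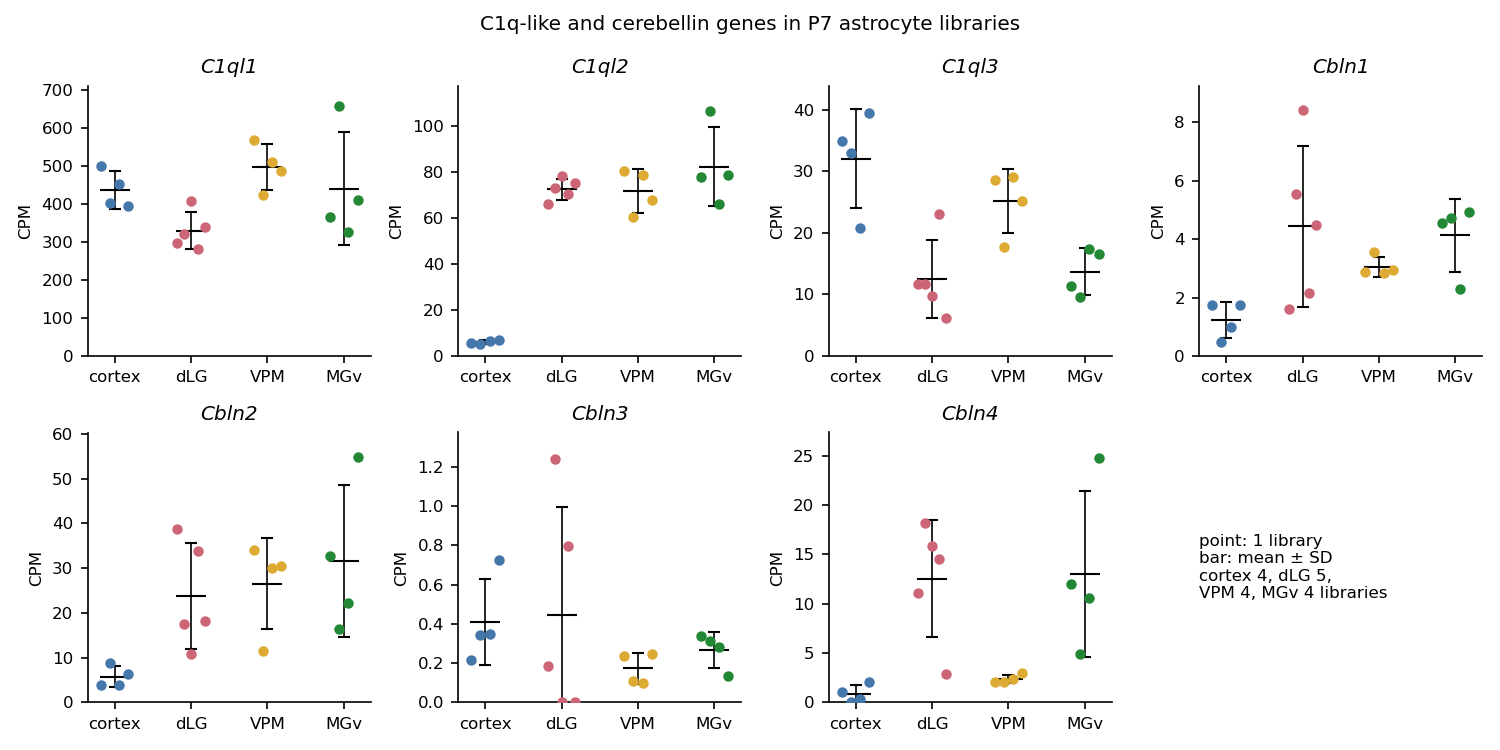
TMM-scaled CPM of the 7 genes in the 4 cortex, 5 dLG, 4 VPM and 4 MGv libraries, with the mean ± SD as bars and separate linear axes from 0. *C1ql2* lies at 5.31 to 7.09 CPM in cortex and 60.5 to 107 CPM in the nuclei, while *Cbln4* lies at 2.10 to 2.96 CPM in VPM, below all MGv libraries.

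The comparison among the 3 nuclei asks which members separate astrocytes of the different sensory relays. The edgeR quasi-likelihood test was run over 17319 genes in the 13 thalamic libraries, with Benjamini-Hochberg adjusted p values over all genes. *Cbln4* was the member that separated VPM from both other nuclei. Its levels were 11.1, 18.2, 15.9, 14.6 and 2.92 CPM in dLG, 2.10, 2.12, 2.40 and 2.96 CPM in VPM and 11.97, 4.87, 10.5 and 24.8 CPM in MGv. VPM was low and even, while dLG replicate e fell within its range and the other dLG and MGv libraries were above it.

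*Cbln4* was higher in dLG than in VPM by a log2FC of 2.41 (SE 0.50, edgeR adjusted p = 0.0193), with means of 12.5 ± 5.94 CPM (SD, n = 5) and 2.39 ± 0.399 CPM (SD, n = 4) and a ratio of 5.23. VPM was lower than MGv by a log2FC of -2.48 (SE 0.51, edgeR adjusted p = 0.0141), and MGv had a mean of 13.0 ± 8.43 CPM (SD, n = 4). Between dLG and MGv the log2FC was -0.07 (95% interval -1.03 to 0.90, edgeR adjusted p = 1), an interval that spans ratios of about 2 in either direction. Both calls held in all 21 alternatives, with adjusted p values of 2.4e-05 to 0.0794 for dLG against VPM and 3.1e-05 to 0.0572 for VPM against MGv. Without dLG replicate e the dLG against VPM log2FC was 2.65, and without MGv replicate d, the highest MGv library, the VPM against MGv log2FC was -1.93. Within library number series 321, *Cbln4* was at 11.1 to 18.2 CPM in dLG, 2.40 to 2.96 CPM in VPM and 4.87 to 24.8 CPM in MGv. Within series 324 it was at 2.92 and 14.6 CPM in dLG and 2.10 and 2.12 CPM in VPM, while MGv had no library outside series 321.

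Cell type markers were also compared between VPM and the other nuclei. Of all genes, 9.64% were called in dLG against VPM and 11.4% in VPM against MGv. Of 6 microglial markers 3 were higher in dLG than in VPM and 3 were lower in VPM than in MGv, at the summed levels given above. Of 10 neuronal markers 1 was higher in dLG than in VPM, as were 3 of 8 astrocyte markers and 1 of 7 oligodendrocyte lineage markers. In VPM against MGv 1 astrocyte marker was higher and 2 were lower, and 2 oligodendrocyte lineage markers were higher and 2 were lower. The astrocyte marker *Gfap* was lower in VPM in both contrasts, with a log2FC of 5.46 for dLG against VPM and -7.28 for VPM against MGv. Between VPM and MGv 1 neuronal marker was higher and 1 was lower, and the summed neuronal level of 823 to 1781 CPM in VPM lay within the 745 to 1987 CPM of MGv. The part of these cells in the *Cbln4* difference was not tested.

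*C1ql1* was lower in dLG than in VPM, where none of the libraries overlapped. It was at 297, 320, 409, 282 and 338 CPM in dLG, at 568, 423, 509 and 486 CPM in VPM and at 366, 657, 326 and 409 CPM in MGv. The VPM libraries began just above dLG replicate c, and MGv replicate b was the highest of all 17. The log2FC of dLG against VPM was -0.56 (SE 0.18, edgeR adjusted p = 0.0917), or a mean 1.51 times higher in VPM. This call is near the threshold and was lost in 11 of 21 alternatives. Without dLG replicates a, b, d or e the edgeR adjusted p was 0.127, 0.151, 0.103 and 0.122. Without VPM replicates a, c or d it was 0.242, 0.185 and 0.166. MGv replicate d is in neither nucleus of this contrast, but it enters the gene filter, the scaling and the shared spread. Without that library the edgeR adjusted p was 0.104. By series, the levels were 297 and 320 CPM in dLG and 486 and 509 CPM in VPM in series 321, and 282 and 338 CPM and 423 and 568 CPM in series 324. After adjustment for library number series the adjusted p was 0.114, and without dLG replicate c it was 0.0854. For dLG against MGv the log2FC was -0.42 (95% interval -0.81 to -0.03, edgeR adjusted p = 0.818), and for VPM against MGv it was 0.14 (95% interval -0.28 to 0.55, adjusted p = 0.729).

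*C1ql3*, known at mossy fibre and cortical synapses, followed the same order of means among the nuclei, with VPM highest. It was at 11.7, 11.7, 9.73, 23.1 and 6.20 CPM in dLG, at 28.6, 17.7, 29.1 and 25.1 CPM in VPM and at 11.3, 9.53, 17.3 and 16.5 CPM in MGv. One dLG library, replicate d, lay inside the VPM range, and all MGv libraries lay below VPM. The log2FC was -0.98 for dLG against VPM (SE 0.31, edgeR adjusted p = 0.0817) and 0.84 for VPM against MGv (SE 0.33, edgeR adjusted p = 0.141). The first call was lost in 12 of 21 alternatives and the second contrast passed the threshold in 5 of 21. Without dLG replicates a, b, c or e the dLG against VPM adjusted p was 0.115, 0.151, 0.141 and 0.136, without VPM replicates a, c or d it was 0.208, 0.205 and 0.170, and without MGv replicate d it was 0.101. After adjustment for library number series it was 0.172. In series 321 the dLG libraries were at 11.7 CPM and the VPM libraries at 25.1 and 29.1 CPM, whereas in series 324 the ranges of 6.20 to 23.1 CPM and 17.7 to 28.6 CPM overlapped. Without dLG replicate d or e the VPM against MGv adjusted p was 0.0615 and 0.0808. The dLG against MGv log2FC was -0.14 (95% interval -0.80 to 0.53).

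*C1ql2*, so different between the regions, was at like levels in the nuclei. The means were 72.6 ± 4.57 CPM in dLG (SD, n = 5), 71.9 ± 9.47 CPM in VPM (SD, n = 4) and 82.4 ± 17.2 CPM in MGv (SD, n = 4). The log2FC was 0.05 for dLG against VPM (95% interval -0.25 to 0.35, edgeR adjusted p = 0.877), -0.19 for dLG against MGv (-0.49 to 0.11, adjusted p = 1) and -0.23 for VPM against MGv (-0.55 to 0.08, adjusted p = 0.379). These intervals are the narrowest among the members tested. The spread within a nucleus was also small, with a coefficient of variation of 6.29% in dLG, 13.2% in VPM and 20.9% in MGv.

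*Cbln1* and *Cbln2* did not pass the threshold between any nuclei, and their spread was wide. The largest *Cbln1* difference was dLG against VPM, with a log2FC of 0.56 (95% interval -0.39 to 1.52, edgeR adjusted p = 0.487), where dLG ran from 1.59 to 8.41 CPM and VPM from 2.85 to 3.57 CPM. The coefficient of variation of *Cbln1* was 62.2% in dLG and 11.2% in VPM. *Cbln2* differed most between dLG and MGv, with a log2FC of -0.41 (95% interval -1.27 to 0.46, edgeR adjusted p = 1). Its coefficient of variation was 38.5% to 53.5% in the nuclei.

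Of the 6 members tested, 1 was higher and 2 were lower in dLG than in VPM, against 9.64% of all genes called in that contrast. The count of 3 fell to 1 without dLG replicate a, b or e, VPM replicate a, c or d, or MGv replicate d, and to 2 without dLG replicate c or d. In VPM against MGv 1 member was lower, against 11.4% of all genes. In dLG against MGv the edgeR test called 0 members, where 0.647% of all genes were called, and DESeq2 also called 0. At an unadjusted p under 0.05 there was 1 member, *C1ql1*. The median log2FC of the members was -0.04, -0.26 and -0.16 in these contrasts, and that of all genes was 0.01, -0.04 and -0.0038. The 3 contrasts share libraries and are not independent.

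**Figure D3:**
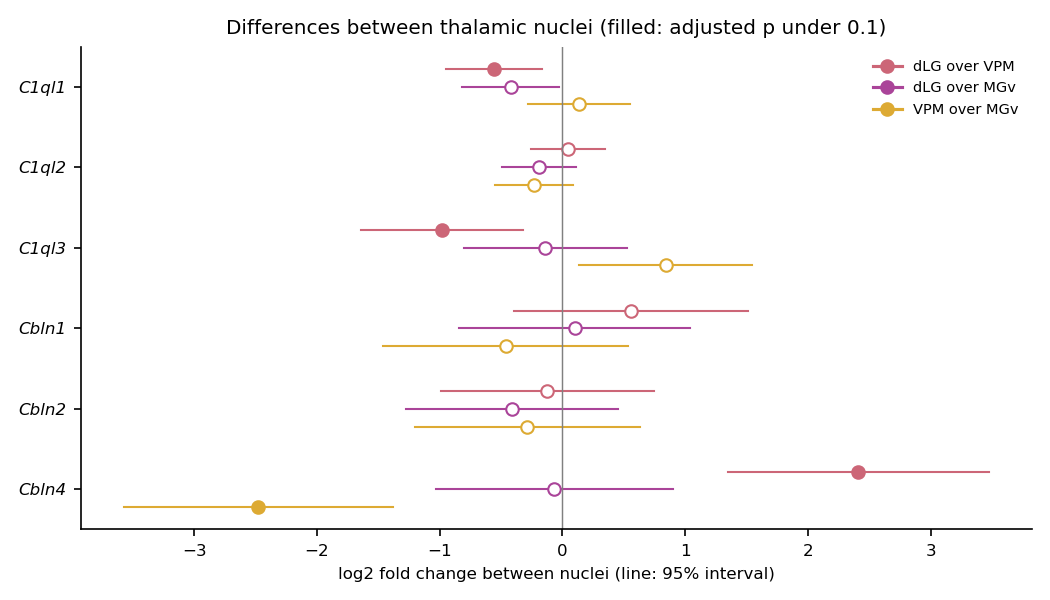
Log2 fold change of the 6 tested members between pairs of nuclei (5 dLG, 4 VPM and 4 MGv libraries), with 95% intervals as lines and filled points where the edgeR adjusted p was under 0.1. *Cbln4* lies at 2.41 for dLG over VPM and -2.48 for VPM over MGv, and the intervals of *C1ql2* include 0 in each pair and reach no farther than -0.55.

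The known receptors and partners of these proteins were all measured, 12 genes in all. In the thalamus against cortex contrast 2 of 12 were higher and 10 did not pass, where 11.4% of all 17856 genes were called in either direction, with a median log2FC of 0.26 against 0.02 for all genes. *Nrxn3*, the presynaptic partner shared by cerebellins and C1q-like proteins, was at 43.3 to 49.2 CPM in cortex and 83.2 to 228 CPM in the nuclei. Its lowest thalamic library, MGv replicate c, was above all of cortex, with a log2FC of 1.59 (SE 0.26, edgeR adjusted p = 0.000406). *Adgrb3*, the receptor of C1q-like proteins, was at 60.1 to 71.0 CPM in cortex and 76.2 to 154 CPM in the nuclei, a log2FC of 0.62 (SE 0.15, edgeR adjusted p = 0.0143). Both calls held in all 25 alternatives, which were applied to the partners after their values were seen. Of 10 neuronal markers, 3 were higher in the thalamus, 1 was lower and 6 did not pass. The part of neuronal RNA in the *Nrxn3* and *Adgrb3* differences was not tested.

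Between nuclei, *Adgrb2*, a relative of *Adgrb3*, was lowest in VPM. It was at 120, 205, 302, 83.4 and 271 CPM in dLG, at 73.6, 96.3, 80.2 and 75.7 CPM in VPM and at 140, 338, 161 and 194 CPM in MGv. All VPM libraries were below all MGv libraries, and dLG replicate d fell within the VPM range. The log2FC was 1.30 for dLG against VPM (SE 0.34, edgeR adjusted p = 0.0466) and -1.39 for VPM against MGv (SE 0.36, edgeR adjusted p = 0.0353). Without VPM replicate a, c or d the adjusted p was 0.145, 0.134 and 0.132 in the first and 0.112, 0.106 and 0.102 in the second, and without MGv replicate b it was 0.118 in the second. After adjustment for library number series the first was 0.120.

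In dLG against VPM 1 of the 12 partners was higher, *Adgrb2*, where 9.64% of all genes were called. In dLG against MGv the edgeR test called 0, with 0 at an unadjusted p under 0.05 and 0 by DESeq2. *Nrxn2*, *Adgrb1*, *Grid1*, which encodes a GluD receptor, the kainate receptor genes *Grik2* and *Grik4*, and *Dcc* and *Neo1*, netrin receptors that are reported partners of cerebellin 4 or its relatives, did not pass in any of the 4 contrasts.

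**Figure D4:**
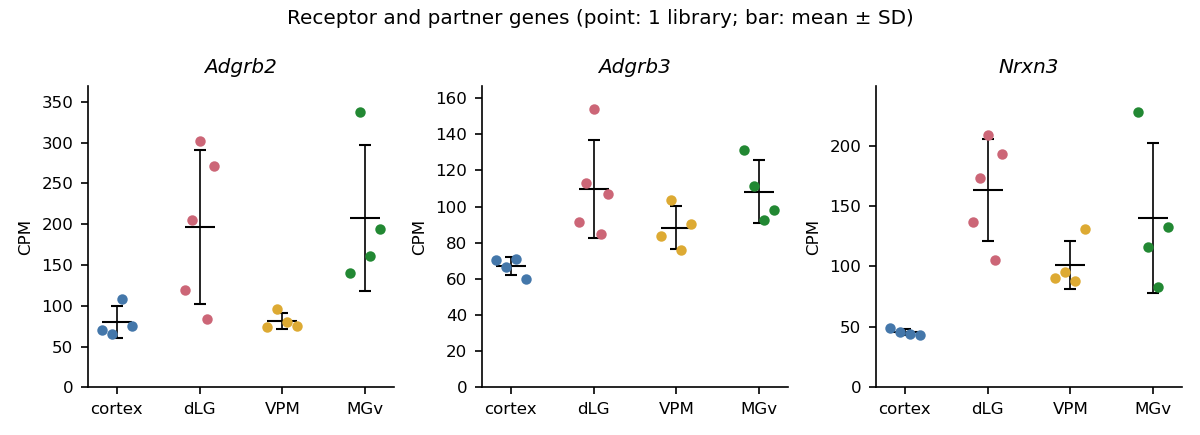
TMM-scaled CPM of *Adgrb2*, *Adgrb3* and *Nrxn3* in each library of cortex, dLG, VPM and MGv, with the mean ± SD as bars. *Nrxn3* and *Adgrb3* lie higher in every thalamic library than in cortex, and *Adgrb2* is lower in VPM (73.6 to 96.3 CPM) than in MGv (140 to 338 CPM).

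Other genes with a C1q domain gave the context of the fold. Of 23 listed genes 22 had a row, 15 passed the filter over all libraries and 13 over the thalamic ones, and *C1ql4*, the remaining C1q-like gene, had at most 22 counts in a library and did not pass. In thalamus against cortex 1 was higher, *C1qc* (log2FC 2.00, edgeR adjusted p = 0.0998), and 1 was lower, *Col8a1* (log2FC -3.12, edgeR adjusted p = 0.0701), of 15 tested, where 11.4% of all genes were called. In dLG against VPM 3 were higher, namely *C1qb* (log2FC 2.95, edgeR adjusted p = 0.0766), *C1qc* (2.79, adjusted p = 0.0193) and *C1qtnf4* (1.17, adjusted p = 0.0498), of 13 tested, where 9.64% of all genes were called. In VPM against MGv 2 were lower, *C1qc* (log2FC -2.16, edgeR adjusted p = 0.0429) and *Col8a2* (-3.43, adjusted p = 0.0919), of 13 tested, where 11.4% of all genes were called. In dLG against MGv the edgeR test called 0, with 1 at an unadjusted p under 0.05 and 1 by DESeq2, in both cases *Emilin1*, a gene of the extracellular matrix that is named after its values were seen. *C1qb* and *C1qc* encode chains of complement C1q, which microglia make. *C1qc* passed in both contrasts in which microglial markers passed, dLG against VPM and VPM against MGv. It also passed in thalamus against cortex, where 0 of 6 microglial markers passed. *C1qb* passed in dLG against VPM, with an edgeR adjusted p of 0.109 in VPM against MGv. The part of microglial RNA in these differences was not tested. Among these calls, *C1qc* in dLG against VPM was the one kept in all its alternatives, with the highest adjusted p at 0.0730, and the others were lost in 3 to 17 of theirs.

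Among libraries of the same group the members did not vary together as a family. The levels on the log2(CPM + 0.5) scale, with the mean of each group removed, were compared over the 17 libraries as a description. *C1ql1* and *C1ql2* had a Pearson r of 0.78 and a Spearman rho of 0.64. MGv replicate b was the highest library of both genes, and without it and dLG replicate c, the libraries farthest from the median of *C1ql1*, r was 0.62. *Cbln4* had its highest r within the family with *C1ql3*, at 0.60, and *Cbln1* and *Cbln2* had an r of -0.56.

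The genes most like each member, out of all genes with a mean of at least 1 CPM, differed from member to member. *Cbln2* was most like *Tspan2* (r = 0.91) and *Enpp6* (r = 0.90), genes known from differentiating oligodendrocytes. Without VPM replicate b and dLG replicate c, the libraries farthest from the median of *Cbln2*, both were 0.86. *Cbln4* was most like *Prmt2* (r = 0.91), *Nr2e1* (r = 0.89) and *Ric8b* (r = 0.87). *C1ql2* was most like *Rnpepl1* (r = 0.88), *Chrna4* (r = 0.86) and *Rps4l* (r = 0.86), *C1ql1* like *C030006K11Rik* (r = 0.94), *Klf13* (r = 0.93) and *Pianp* (r = 0.93), *C1ql3* like *Vps35l* (r = 0.96), *Api5* (r = 0.95) and *Nckap1* (r = 0.95), and *Cbln1* like *Slc25a1* (r = 0.84), *Fndc1* (r = 0.83) and *Asxl1* (r = 0.83). Each is the highest of many values, over libraries that also differ in depth and cell content.

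**Figure D5:**
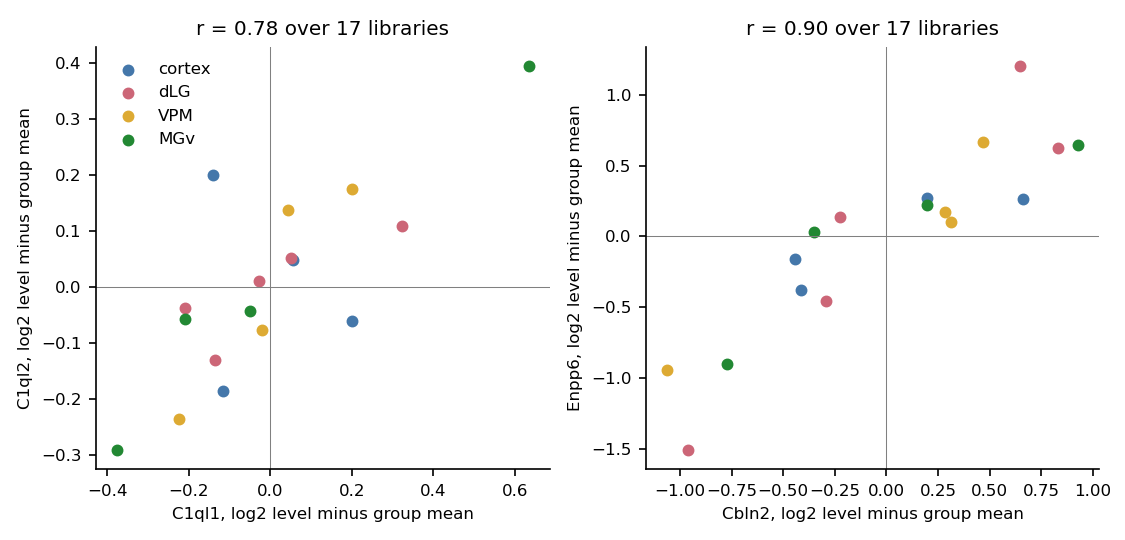
Levels of *C1ql2* against *C1ql1* and of *Enpp6* against *Cbln2* as log2(CPM + 0.5) minus the mean of the group, with 1 point per library (17 libraries). The points rise together, with r = 0.78 and r = 0.90, and MGv replicate b is the point at the upper right of the first panel.

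The relation of each tested member to the mean level of the neuronal and of the oligodendrocyte lineage markers was tested over the same 17 libraries, by a permutation test within groups (2-sided, 12 relations). None passed an adjusted p of 0.1. The largest was *C1ql2* with the oligodendrocyte lineage, with r = 0.64 (permutation p = 0.0252, adjusted p = 0.222) and rho = 0.64 (permutation p = 0.0210, adjusted p = 0.252). Without the 2 libraries farthest in marker level r was 0.52, and in the 10 libraries of series 321 it was 0.56. *Cbln2* had r = 0.56 with the oligodendrocyte lineage (permutation p = 0.0426, adjusted p = 0.222), which was 0.37 without the 2 farthest libraries and 0.40 in series 321. *Cbln2* with neurons had r = 0.51 (permutation p = 0.0821, adjusted p = 0.222) and *Cbln4* with neurons r = 0.40 (permutation p = 0.0924, adjusted p = 0.222).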

How the data were processed

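Counts per gene were deposited for each of the 17 libraries as whole numbers. Per the paper's methods and the labels, the authors trimmed single 50-base reads, checked them with FastQC 0.11.7, aligned them to GRCm38.p6 (mm10) with STAR 2.7.0d, handled them with SAMtools 1.9 and counted them with featureCounts (Subread 1.6.4). All libraries shared a flow cell. The strand setting of the counting is not given in the sources used here, and the deposited counts hold no gene with a total under 10.

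Here, counts were fitted with edgeR 4.0.16 in R 4.3.3 (TMM, filterByExpr, robust quasi-likelihood fit), as 2 regions over 17 libraries and as 3 nuclei over 13 libraries. A gene was called at a Benjamini-Hochberg adjusted p under 0.1, the threshold of the study. Standard errors were taken from the fold change and its F value, and 95% intervals from the t distribution. The fit and the permutation test (100000 resamples) were tested on simulated data. Exonic lengths and symbols came from the GRCm38.p6 annotation (Ensembl release 96), which named 26548 of 26556 genes. All 7 members, up to 8 partner and 8 other C1q-domain genes past the threshold by lowest adjusted p, and for each tested member the 3 most like genes were taken, and a few of these are not reported here. Members and lists were chosen with earlier results of these data known. No pair of libraries agreed within counting error. The labels do not say whether brains or mice were shared between libraries, so p values measure the spread between these pools. A count of 0 allows up to 3 counts, or 0.0596 to 0.165 CPM by library, for counting error only. Alternatives were DESeq2 1.42.0 and its size factors, other filters, a threshold of 0.05, a block for the replicate letter, adjustment for library number series (first digits of the number in the labels), a fit of 4 groups and leaving out each library.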

Additional observations from a re-analysis of the deposited data

Results flagged for a closer look

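The spread of each member was checked in each group of 4 or 5 libraries, 28 sets in all, for a library that lies far from the rest of its group. Chance alone flags about 1 set in 20, or 1.4 of 28, and 2 were found, both for *Cbln1*. VPM replicate b was at 3.57 CPM, where the other VPM libraries were at 2.85 to 2.96 CPM. MGv replicate c was at 2.28 CPM, where the other MGv libraries were at 4.57 to 4.94 CPM. *Cbln1* had 57 to 64 counts in the VPM libraries and 48 to 109 in the MGv libraries, and MGv replicate c was also the library with the highest summed astrocyte markers, at 14905 CPM. No call between the nuclei rests on these values.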

How the results depend on the processing

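The number of members called in dLG against VPM fell from 3 to 1 (*Cbln4*) at an adjusted p under 0.05, with the replicate block and after adjustment for library number series, and was 1 to 3 when libraries were left out. In VPM against MGv it rose from 1 to 2 with DESeq2, with the replicate block and in the fit of 4 groups, where *C1ql3* joined, and was 1 to 2 when libraries were left out. In thalamus against cortex it was 5, where 11.4% of all genes were called. It was 3 to 5 when libraries were left out, with the 3 found without cortex replicate b. The family was chosen by the levels in this contrast, so these counts depend in part on that choice. They are a description and no test of the members, and nothing is read from them or from how they hold. In dLG against MGv the number of members called stayed at 0 throughout.

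With the letters of the replicates as a block, *C1ql1* and *C1ql3* had adjusted p values of 0.150 and 0.103 in dLG against VPM (edgeR), and *C1ql3* 0.0575 in VPM against MGv. Libraries with the same letter had a median correlation of 0.0257 over 24 pairs, with 6 over 0.1. Pairs of unlike letters had a median of -0.0185 over 84 pairs, with 22 over 0.1. The labels do not say whether letters pair libraries, and these medians cannot decide it, since the pairs share libraries. *C1ql3* in dLG against VPM was also lost without the filter (edgeR adjusted p = 0.103). *C1ql3* in VPM against MGv had adjusted p values of 0.0767 with DESeq2 and 0.0897 in the fit of 4 groups.

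Direction turned only for differences that were not called. With the replicate block the dLG against MGv log2FC was 0.017 for *C1ql3*, -0.093 for *Cbln1* and 0.34 for *Cbln4*. After adjustment for library number series it was -0.28 for *Cbln1* and 0.071 for *Cbln4*, and dLG against VPM was 0.076 for *Cbln2*. When libraries were left out, the log2FC of dLG against VPM ran from -0.032 to 0.10 for *C1ql2* and from -0.38 to 0.065 for *Cbln2*, that of dLG against MGv from -0.48 to 0.032 for *C1ql3*, from -0.26 to 0.32 for *Cbln1* and from -0.33 to 0.46 for *Cbln4*, and that of VPM against MGv from -0.48 to 0.16 for *Cbln2*.

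Over all genes, calls in dLG against VPM numbered 1670, but 2888 with DESeq2, 705 under 0.05, 1079 with the block, 814 with the series covariate and 357 to 3147 with a library left out. In dLG against MGv they numbered 112, but 290 with DESeq2, 64 with the series covariate, 183 in the fit of 4 groups and down to 66 with a library left out. In VPM against MGv they numbered 1979, but 3068 with DESeq2, 958 under 0.05 and 712 to 2998 with a library left out. In thalamus against cortex they numbered 2033, and 1155 without cortex replicate d. Depth limits *Cbln3* and cortical *Cbln4*, with at most 26 and 48 counts per library. Cortical *Cbln1* was also low, at 10 to 80 counts per library.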
